A study of Mus musculus with 6 samples.

Results

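The fibrinogen chains were followed here through 3 genes, Fga, Fgb and Fgg, in fibrotic mouse kidneys carrying TGFbeta, that is TGF-β1, which drives matrix deposition. The members were all 25 rows of the deposited array table, of 241576 rows in all, whose annotation gave exactly 1 symbol equal to Fga (7 rows), Fgb (8 rows) or Fgg (10 rows). A row is an exon probe set, a group of short probes that read 1 stretch of a gene. The genes were selected on their log2 differences between the groups of these same arrays, which are large, so those differences are given as a description without a test. Albumin (Alb, 15 rows), the most abundant secreted product of hepatocytes, was read beside them as a check for RNA of liver tissue.

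The study asked how inbred strains differ in their sensitivity to TGF-β1 in the kidney. It holds 6 arrays, 3 of CBAxB6-TGFbeta kidneys (replicates 4, 5 and 6), whose label joins the strain names CBA and B6, and 3 of B6-TGFbeta kidneys (replicates 1, 2 and 3), whose label gives B6 alone. Both groups carry TGFbeta and induced renal fibrosis in their labels, and none of the arrays is from mice without them. The labels also add the word KO to the CBAxB6-TGFbeta group and WT to the B6-TGFbeta group without naming a gene, so background and any such genotype cannot be told apart. Cohorts are described as littermates matched for age and sex, and the age, the sex and the promoter behind the TGF-β1 supply are not given in these sources. Each array is taken as 1 animal, which no label states, so SEs and p-values measure only the spread between these arrays, which may be technical.

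Fibrinogen is a soluble plasma protein built from paired alpha, beta and gamma chains, the products of Fga, Fgb and Fgg, which are joined by disulfide bonds in the endoplasmic reticulum before secretion. Thrombin removes short peptides from the alpha and beta chains, the resulting fibrin polymerises into a clot, factor XIII cross-links it and plasmin dissolves it. Hepatocytes are the main source in health, where IL-6 acting through STAT3, with C/EBP factors, raises all of the chains in the acute phase response, and injured kidney tubules are also known to transcribe them.

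The 3 genes lie side by side on chromosome 3 in the RefSeq gene table (GRCm38.p6), with Fgg and Fga read on the plus strand and Fgb on the minus strand. The 250 bases before the start of each are shown because the genes moved together, and because the liver factors named above are known to act through such promoters. Sequences are those of RefSeq, 5′ to 3′, and capitals mark letters found on either strand by a search for CTGGGAA (an IL-6 response motif), TTCNNNGAA and the same with a 4-base spacer (STAT motifs), TTGCNNAA (a C/EBP motif) and TATAAA.
Fga promoter, chr3:83025903-83026152, plus strand: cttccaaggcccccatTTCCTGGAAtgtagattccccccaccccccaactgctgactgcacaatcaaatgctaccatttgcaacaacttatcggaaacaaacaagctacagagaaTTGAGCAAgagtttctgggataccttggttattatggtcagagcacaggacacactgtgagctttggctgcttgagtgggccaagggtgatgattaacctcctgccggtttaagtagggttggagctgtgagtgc
Fgb promoter, chr3:83049864-83050113, minus strand: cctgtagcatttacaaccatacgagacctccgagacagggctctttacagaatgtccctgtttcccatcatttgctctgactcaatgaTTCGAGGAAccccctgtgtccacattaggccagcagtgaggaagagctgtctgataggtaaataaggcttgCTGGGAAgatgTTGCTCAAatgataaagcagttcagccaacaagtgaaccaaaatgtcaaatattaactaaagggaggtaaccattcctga
Fgg promoter, chr3:83007474-83007723, plus strand: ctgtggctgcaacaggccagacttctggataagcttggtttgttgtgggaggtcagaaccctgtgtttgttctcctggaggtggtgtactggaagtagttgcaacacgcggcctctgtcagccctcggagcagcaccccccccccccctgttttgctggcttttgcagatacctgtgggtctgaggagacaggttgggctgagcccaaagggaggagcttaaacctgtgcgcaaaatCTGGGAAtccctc
In Fga the capitals are a STAT motif with the 3-base spacer at position -234 from the start and a C/EBP motif. In Fgb they are the same kinds and, between the STAT and C/EBP motifs, the IL-6 response motif at position -91. In Fgg the IL-6 response motif, at position -13, is the only match. Of 32851 promoter windows of 300 bases in the same table, 11.1% hold CTGGGAA, 8.3% TTCNNNGAA, 6.95% the STAT motif with the longer spacer, 10.8% TTGCNNAA and 13.6% TATAAA, and none of the marked motifs overlaps another. GTTAAT, a motif of the liver factor HNF1, was not part of this search. Its reverse complement, ATTAAC, stands unmarked in the Fga and Fgb sequences, and neither form is in that of Fgg. How many promoter windows hold it was not counted. All of these matches describe letters and are not evidence of binding.

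Rows were combined into 1 log2 value per gene and array by Tukey's median polish, which takes out each row's own brightness. Array medians over all rows lay between 7.27 and 7.34. Replicates 6 and 2 stood apart in the liver marker Alb. Alb was at 10.94 in CBAxB6-TGFbeta replicate 6 and at 9.45 in B6-TGFbeta replicate 2, against 6.00 to 6.29 in the other 4 arrays, and B6-TGFbeta replicate 2 also had the brown fat gene Ucp1 at 10.93, against 5.13 to 6.22 elsewhere. The mean level of the fat markers was 7.89 in B6-TGFbeta replicate 2 and 6.40 in CBAxB6-TGFbeta replicate 4, against 5.61 to 5.82 in the other arrays. Results on the chains are therefore also given without replicates 2 and 6, a set that still holds replicate 4. Of 11 kidney markers measured, 8 passed as lower in CBAxB6-TGFbeta kidneys in limma, where 4.57% of all genes were called lower, 3.08% higher and 7.65% in all. The 8 became 1 with any 1 of the B6-TGFbeta arrays left out, and 1, 2 and 4 without CBAxB6-TGFbeta replicate 4, 5 and 6. The mean level of the list was 9.79 to 9.90 in CBAxB6-TGFbeta arrays and 10.55 to 10.74 in B6-TGFbeta arrays, above the array medians.

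All of the chains were higher in CBAxB6-TGFbeta kidneys, by 5.93-fold for Fga, 8.80-fold for Fgb and 16.4-fold for Fgg. In bulk tissue, more cells that make a chain and more RNA per cell cannot be told apart.

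Fga, which encodes the alpha chain, had gene values of 10.60, 10.48 and 10.34 in CBAxB6-TGFbeta replicates 4, 5 and 6, against 7.91, 8.0 and 7.80 in B6-TGFbeta replicates 1, 2 and 3. These combined values spanned 0.26 in CBAxB6-TGFbeta arrays and 0.20 in B6-TGFbeta arrays. The lowest CBAxB6-TGFbeta array was 2.34 above the highest B6-TGFbeta array. Single rows of Fga had SDs of up to 0.53 in CBAxB6-TGFbeta and 0.40 in B6-TGFbeta arrays. The B6-TGFbeta SD of the combined values equals that of row 3 alone, the smallest of the gene. The SDs and SE below thus describe the combined values and not the spread of the single rows. The mean was 10.47 ± 0.13 in CBAxB6-TGFbeta and 7.90 ± 0.10 in B6-TGFbeta kidneys (SD, n = 3 each), which gave a log2 difference of 2.57 (SE 0.11). On the linear scale 1 SE either way spans 5.51-fold to 6.39-fold.

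Fgb, which encodes the beta chain, had gene values of 9.26, 10.06 and 9.58 in CBAxB6-TGFbeta replicates 4, 5 and 6, against 6.02, 7.03 and 6.44 in B6-TGFbeta replicates 1, 2 and 3. Its arrays were the most spread of the 3 chains, over 0.80 in CBAxB6-TGFbeta and 1.01 in B6-TGFbeta kidneys, and the groups were still 2.23 apart at their nearest arrays. The mean was 9.63 ± 0.40 in CBAxB6-TGFbeta and 6.50 ± 0.51 in B6-TGFbeta kidneys (SD, n = 3 each), which gave a log2 difference of 3.14 (SE 0.26), or 7.34-fold to 10.5-fold within 1 SE.

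Fgg, which encodes the gamma chain, had gene values of 10.99, 11.04 and 10.68 in CBAxB6-TGFbeta replicates 4, 5 and 6, against 6.62, 7.09 and 6.88 in B6-TGFbeta replicates 1, 2 and 3. The lowest CBAxB6-TGFbeta array was 3.58 above the highest B6-TGFbeta array, while the arrays of 1 group lay within 0.36 and 0.48 of each other in CBAxB6-TGFbeta and B6-TGFbeta kidneys. The mean was 10.90 ± 0.20 in CBAxB6-TGFbeta and 6.86 ± 0.24 in B6-TGFbeta kidneys (SD, n = 3 each), which gave a log2 difference of 4.04 (SE 0.15), or 14.9-fold to 18.2-fold within 1 SE. The Fgg difference was 0.90 larger than that of Fgb and 1.47 larger than that of Fga on the log2 scale. The order of Fga and Fgb depended on the rows used. On the brightest row of each gene the differences were 2.81 for Fga, 2.21 for Fgb and 3.83 for Fgg. Since the rows of different genes respond differently, levels of the chains were not set against each other.

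**Figure D1:**
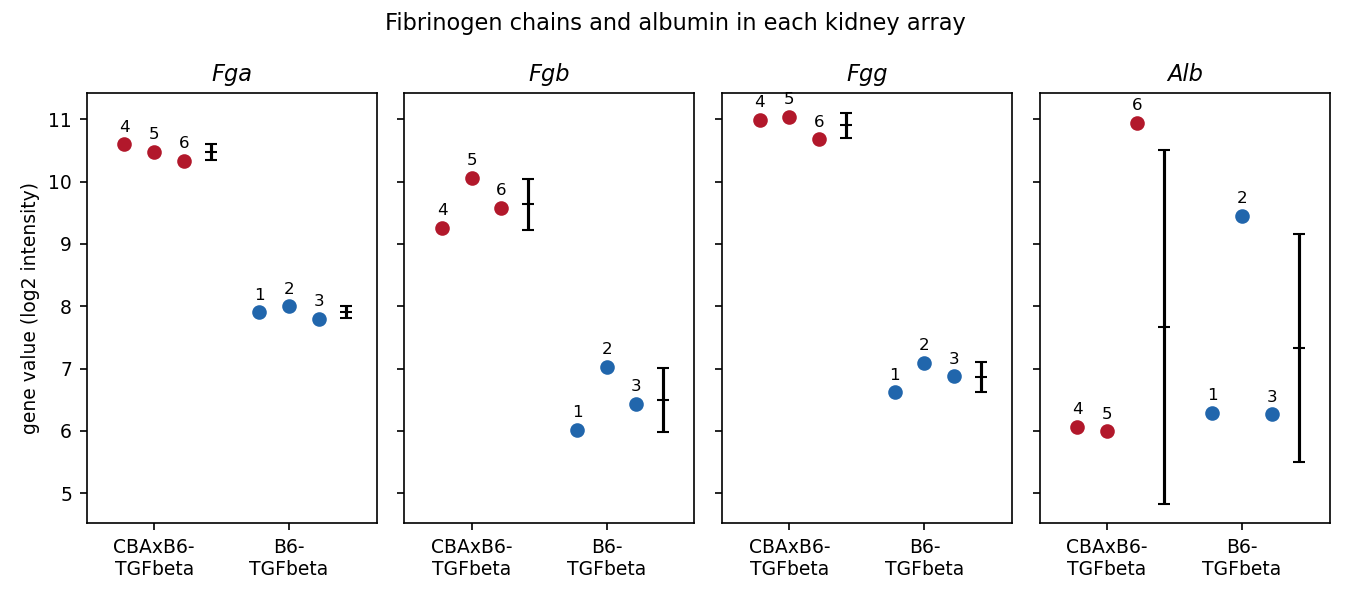
Gene values (log2 intensity, y axis) of Fga, Fgb, Fgg and Alb in every array, with CBAxB6-TGFbeta left of B6-TGFbeta, replicate numbers above the points and the mean ± SD (n = 3) as black bars. The nearest arrays of the groups are 2.34, 2.23 and 3.58 apart for Fga, Fgb and Fgg, while the Alb groups overlap, with replicates 6 and 2 at 10.94 and 9.45.

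The lowest CBAxB6-TGFbeta array exceeded the highest B6-TGFbeta array for all 3 chains, which was also the case for 13.5% of all 20416 genes, with another 13.4% lying entirely below. At the level of rows, all 25 rows did so, against 10.0% of the 212097 rows with 1 symbol. These counts follow from how the genes were chosen and carry no weight as a test.

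The 10 rows of Fgg are given in file order, with the CBAxB6-TGFbeta values in the order of replicates 4, 5 and 6 and the B6-TGFbeta values in the order of replicates 1, 2 and 3. The first row read 9.50, 9.62 and 9.17 in CBAxB6-TGFbeta kidneys, against 7.30, 7.40 and 7.59 in B6-TGFbeta kidneys. The second row stood at 11.34, 11.47 and 11.06 in the CBAxB6-TGFbeta arrays and at 6.47, 6.61 and 7.86 in the B6-TGFbeta arrays. The third row gave 10.90, 10.81 and 10.48 in CBAxB6-TGFbeta kidneys and 6.86, 6.30 and 6.03 in B6-TGFbeta kidneys. The first row showed the smallest difference of the gene, 2.00, and the next ones showed 4.30 and 4.33. Row 4 had 11.18, 11.33 and 10.86 in the CBAxB6-TGFbeta group, against 6.29, 7.77 and 6.86 in the B6-TGFbeta group. Row 5 read 10.77, 10.75 and 9.88 in CBAxB6-TGFbeta kidneys, against 7.39, 6.93 and 7.15 in B6-TGFbeta kidneys. Row 6 stood at 12.23, 12.34 and 11.82 in the CBAxB6-TGFbeta arrays and at 7.30, 7.37 and 8.19 in the B6-TGFbeta arrays. CBAxB6-TGFbeta replicate 6 was the lowest of its group in each of these rows, most clearly in row 5, where it was 9.88 beside 10.77 and 10.75. Row 7 gave 12.10, 12.14 and 11.59 in CBAxB6-TGFbeta kidneys and 7.93, 8.17 and 8.22 in B6-TGFbeta kidneys. Row 8 had 11.44, 11.47 and 11.13 in the CBAxB6-TGFbeta group, against 7.05, 6.75 and 6.58 in the B6-TGFbeta group. Row 8 had the largest difference of all 25 rows, 4.55, and the widest gap between the nearest arrays of the groups, 4.09. Row 9 read 10.62, 10.93 and 10.72 in CBAxB6-TGFbeta kidneys, against 6.00, 6.94 and 6.50 in B6-TGFbeta kidneys. Row 10 stood at 10.71, 10.65 and 10.75 in the CBAxB6-TGFbeta arrays and at 6.33, 7.26 and 4.90 in the B6-TGFbeta arrays. In row 10 the CBAxB6-TGFbeta arrays agreed within an SD of 0.05, the smallest among the chains, whereas the B6-TGFbeta arrays had an SD of 1.19, the largest. Over the 10 rows the difference ran from 2.00 to 4.55 with a median of 4.29. Replicate 6 was the lowest CBAxB6-TGFbeta array in 8 of 10 rows and replicate 5 the highest in 7, while the highest B6-TGFbeta array was replicate 1, 2 or 3 in 3, 3 and 4 rows. Every CBAxB6-TGFbeta value lay above the upper quartile of its array in all 10 rows, and in 4 rows all B6-TGFbeta values were below the median of their arrays.

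Fga was read by 7 rows. The first gave 10.60, 10.74 and 9.76 in CBAxB6-TGFbeta kidneys and 7.88, 7.75 and 8.08 in B6-TGFbeta kidneys. The second had 9.79, 9.47 and 9.45 in the CBAxB6-TGFbeta group, against 7.06, 6.70 and 6.26 in the B6-TGFbeta group. The third read 11.15, 11.09 and 10.96 in CBAxB6-TGFbeta kidneys, against 8.52, 8.61 and 8.42 in B6-TGFbeta kidneys. CBAxB6-TGFbeta replicate 6 was lowest in each of them, by the most in the first row, where the SD of the group was 0.53, the largest among the rows of this gene. Row 4 of Fga stood at 11.76, 12.02 and 11.71 in the CBAxB6-TGFbeta arrays and at 9.02, 9.14 and 8.90 in the B6-TGFbeta arrays. Row 5 of Fga gave 11.14, 11.34 and 10.52 in CBAxB6-TGFbeta kidneys and 7.64, 8.19 and 7.53 in B6-TGFbeta kidneys. Row 5 showed the largest difference of the gene, 3.21. Rows 6 and 7 of Fga held identical values in every array, and each had 8.40, 8.34 and 7.76 in the CBAxB6-TGFbeta group, against 6.42, 6.31 and 6.64 in the B6-TGFbeta group. They count as 1 measurement, and with the repeated row left out, an alternative added once the data had been seen, the Fga difference was 2.64. These rows showed the smallest difference of the gene, 1.71, and over all rows it had a median of 2.55. Replicate 6 was the lowest CBAxB6-TGFbeta array in 7 of 7 rows. None of the Fga rows lay below the lower quartile in all B6-TGFbeta arrays, and in 3 rows, the identical pair included, all B6-TGFbeta values were below the array median.

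Fgb was read by 8 rows. The first Fgb row read 10.33, 11.27 and 10.83 in CBAxB6-TGFbeta kidneys, against 8.56, 8.86 and 8.38 in B6-TGFbeta kidneys. The second Fgb row stood at 10.52, 11.25 and 10.80 in the CBAxB6-TGFbeta arrays and at 7.35, 8.16 and 8.11 in the B6-TGFbeta arrays. The third Fgb row gave 10.10, 10.92 and 10.41 in CBAxB6-TGFbeta kidneys and 6.44, 7.19 and 7.22 in B6-TGFbeta kidneys. In each of these rows CBAxB6-TGFbeta replicate 5 was the highest and replicate 4 the lowest of the group. Row 4 of Fgb had 8.10, 9.12 and 8.56 in the CBAxB6-TGFbeta group, against 4.47, 5.43 and 4.88 in the B6-TGFbeta group. Row 5 of Fgb read 8.86, 10.07 and 9.39 in CBAxB6-TGFbeta kidneys, against 5.70, 7.03 and 6.15 in B6-TGFbeta kidneys. Row 6 of Fgb stood at 9.15, 9.94 and 9.75 in the CBAxB6-TGFbeta arrays and at 5.53, 7.02 and 5.40 in the B6-TGFbeta arrays. Row 4 held the largest difference of the gene, 3.67, and was the only row of the chains in which all B6-TGFbeta values fell below the lower quartile of their arrays. Row 7 of Fgb gave 7.33, 8.14 and 7.88 in CBAxB6-TGFbeta kidneys and 6.16, 6.31 and 5.93 in B6-TGFbeta kidneys. Row 8 of Fgb had 9.49, 10.18 and 9.34 in the CBAxB6-TGFbeta group, against 6.87, 7.03 and 6.56 in the B6-TGFbeta group. Row 7 had the smallest difference among all 25 rows, 1.66, and the smallest gap between the groups, 1.02. The median over the 8 rows was 3.06. Replicate 5 was the highest CBAxB6-TGFbeta array in 8 of 8 rows and replicate 4 the lowest in 7, an order of arrays unlike that of Fga and Fgg, in which replicate 6 was mostly lowest. Among B6-TGFbeta arrays, replicate 2 was the highest in 7 of 8 Fgb rows. With so few arrays no test of this order was made.

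**Figure D2:**
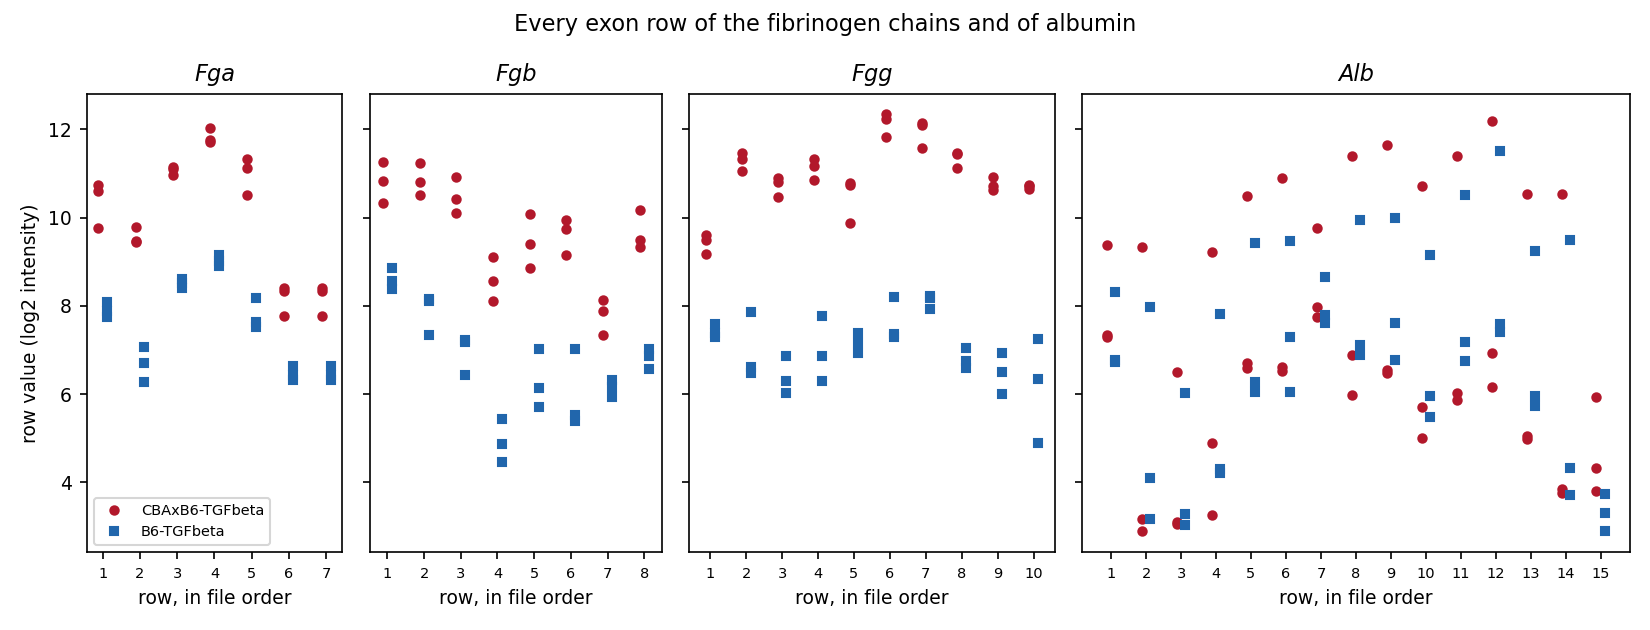
Log2 intensity (y axis) of every exon row of Fga, Fgb, Fgg and Alb (x axis, rows in file order), with CBAxB6-TGFbeta arrays as red circles left of B6-TGFbeta arrays as blue squares. The 2 groups are apart in all 25 rows of the chains, by 1.02 to 4.09 at the nearest arrays, and overlap in 14 of 15 Alb rows.

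Alb, the check for liver RNA, had gene values of 6.07, 6.00 and 10.94 in CBAxB6-TGFbeta replicates 4, 5 and 6, against 6.29, 9.45 and 6.27 in B6-TGFbeta replicates 1, 2 and 3. The high arrays were 1 in each group, and the groups overlapped. The means were 7.67 ± 2.83 in CBAxB6-TGFbeta and 7.34 ± 1.83 in B6-TGFbeta kidneys (SD, n = 3 each), which gave a log2 difference of 0.33 (SE 1.29, adjusted p = 0.924 in limma with Benjamini-Hochberg adjustment over all genes). The sign turned, to -1.10, without CBAxB6-TGFbeta replicate 6, and to -0.03 and -0.19 without B6-TGFbeta replicate 1 and 3. Replicate 6 was the highest CBAxB6-TGFbeta array and replicate 2 the highest B6-TGFbeta array in 15 of 15 Alb rows.

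The chains did not follow Alb across the CBAxB6-TGFbeta arrays. Alb in replicate 6 was 4.91 above the mean of replicates 4 and 5, while Fga, Fgb and Fgg were at -0.20, -0.08 and -0.34 on the same measure. In B6-TGFbeta kidneys, Alb in replicate 2 was 3.17 above the mean of replicates 1 and 3, and Fga, Fgb and Fgg were 0.15, 0.80 and 0.35 above it. The Fgb value in replicate 2 was thus the highest of its group, and its part in the spread of Fgb was not tested. Without replicates 2 and 6, also an alternative added afterwards, which leaves 2 arrays in each group, the log2 differences were 2.66 (SE 0.12) for Fga, 3.41 (SE 0.26) for Fgb and 4.22 (SE 0.13) for Fgg. Each was larger than with all 6 arrays, and Alb stood at -0.10 there (adjusted p = 0.779 in limma).

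Among 24 measured hepatocyte markers, Itih3 was higher in CBAxB6-TGFbeta kidneys, Serpina1e and Apob were lower and the other 21 missed the threshold. Serpina1e was read by 1 row and did not rise with Alb. It stood at -0.30 in replicate 2 and -0.35 in replicate 6 against the mean of the other arrays of the same group. The list's median log2 difference was 0.07, beside 0.02 over all genes, of which 3.08% were called higher and 4.57% lower. The mean level of the list was 5.90, 5.93 and 6.59 in CBAxB6-TGFbeta replicates 4, 5 and 6, and 5.92, 6.39 and 5.98 in B6-TGFbeta replicates 1, 2 and 3. Alb, Ahsg, Serpina1c, Apoa1 and Itih2, secreted liver proteins, were over 1 log2 unit above the other CBAxB6-TGFbeta arrays in replicate 6, and Alb, Ahsg and Serpina1c were so in B6-TGFbeta replicate 2. Over the whole list, replicate 6 was the highest CBAxB6-TGFbeta array for 18 of 24 markers and replicate 2 the highest B6-TGFbeta array for 14 of 24. Among liver enzymes, Cps1 was 0.85 and Tdo2 0.73 above the other CBAxB6-TGFbeta arrays in replicate 6, and 0.60 and 0.20 above the other B6-TGFbeta arrays in replicate 2, while Tat stood at 0.09 and Cyp7a1 at -0.07 in replicate 6 and at -0.08 and -0.20 in replicate 2. These 4 enzymes and the 5 secreted proteins were chosen after their values were seen. The chains were high in CBAxB6-TGFbeta replicates 4 and 5, where Alb was 6.07 and 6.00, as in replicate 6.

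**Figure D3:**
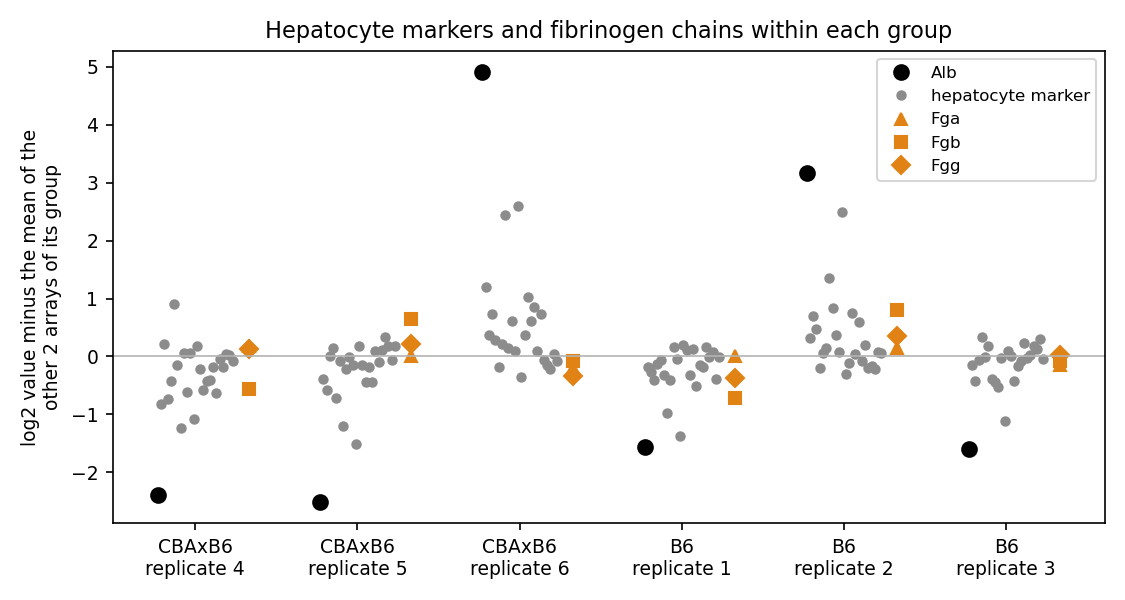
For each array (x axis, CBAxB6-TGFbeta left of B6-TGFbeta), the log2 value of 24 hepatocyte markers (grey, Alb in black) and of the chains (orange) minus the mean of the other 2 arrays of the same group (y axis). Alb is 4.91 up in replicate 6 and 3.17 up in replicate 2, where the chains sit at -0.34 to -0.08 and at 0.15 to 0.80.

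Of the platelet markers, Ppbp, a platelet chemokine, was higher in CBAxB6-TGFbeta kidneys and 9 of 10 did not pass (median 0.05). Over all genes 3.08% passed as higher. The list had mean levels of 6.20 to 6.31 in CBAxB6-TGFbeta and 5.99 to 6.12 in B6-TGFbeta arrays, ranges that do not overlap, and its part in the chain differences was not tested. Of 10 fat markers 0 passed in limma, also 0 at an unadjusted p under 0.05, with a mean level of 5.82 to 6.40 in CBAxB6-TGFbeta and 5.61 to 7.89 in B6-TGFbeta arrays.

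Of 10 measured genes of the region around the cluster, 2 passed as higher, 1 as lower and 7 in neither direction (median 0.22). The shares over all genes were 3.08% higher and 4.57% lower. Tlr2, a receptor of innate immunity, was higher (1.91, SE 0.18, adjusted p = 0.000696 in limma), and Sfrp2, a secreted regulator of Wnt signalling, was lower (-0.98, SE 0.11, adjusted p = 0.00154 in limma). The 3 calls became 0 with any 1 of the B6-TGFbeta arrays left out, and 2, 1 and 3 without CBAxB6-TGFbeta replicate 4, 5 and 6. Rbm46, the other gene that passed as higher, which encodes an RNA-binding protein of germ cells, had 8.08, 8.13 and 7.88 in CBAxB6-TGFbeta kidneys and 6.71, 6.97 and 6.49 in B6-TGFbeta kidneys. Its log2 difference of 1.30 (SE 0.14, adjusted p = 0.000953 in limma) rested on 5 rows from 0.020 to 2.06, in 4 of which the groups did not overlap, and its adjusted p was above 0.05 with any 1 of the B6-TGFbeta arrays left out. Lrat, an enzyme that esterifies retinol, lies between Rbm46 and Fgg and stood at -0.094 (SE 0.12, adjusted p = 0.728 in limma). On the other side, next to Fgb, the splicing factor gene Plrg1 had 0.26 (SE 0.10, adjusted p = 0.153 in limma) and Gm10710 had -0.0052 on 1 row (adjusted p = 0.987 in limma). The log2 difference was thus 3.14 in Fgb and 0.26 in the gene beside it.

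The genes whose profile over the 6 arrays was closest to each chain were found by the mean absolute difference between profiles centred on their own mean, among 16910 other genes with at least 3 rows. The profile of Fga was nearest to Havcr1, the kidney injury molecule of proximal tubules (0.18 log2 units), the matrix proteoglycan gene Vcan (0.19), the amine oxidase Abp1 (0.21) and the metalloproteinase inhibitor Timp1 (0.21). The profile of Fgb was nearest to complement C3 (0.24), then Timp1 (0.39), Havcr1 (0.42) and the cytokine Il6 (0.46). The profile of Fgg was nearest to H2-Ea, an MHC class II chain (0.24), then C3 (0.38), the keratin Krt20 (0.43) and Timp1 (0.58). H2-Ea had 9.32, 8.60 and 8.95 in CBAxB6-TGFbeta replicates 4, 5 and 6, against 5.18, 5.25 and 5.30 in B6-TGFbeta replicates 1, 2 and 3. The part of strain background in these H2-Ea values was not tested. The distances between the chains themselves were 0.41 for Fga and Fgb, 0.45 for Fgb and Fgg and 0.74 for Fga and Fgg, so other genes lay closer to each chain than did the nearest other chain. The group difference is part of this likeness, which says nothing of shared control.

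Genes upstream of the chains in the liver were read next, beside shares over all genes of 3.08% called higher and 4.57% called lower. In the IL-6 family list 6 of 19 genes were higher in CBAxB6-TGFbeta kidneys and the other 13 missed the threshold (median 0.31). Il6 itself had 5.90, 7.19 and 7.24 in CBAxB6-TGFbeta and 3.81, 4.14 and 4.61 in B6-TGFbeta kidneys, a difference of 2.59 (SE 0.34, adjusted p = 0.0027 in limma). CBAxB6-TGFbeta replicate 4, the lowest array for Il6, was also the lowest for Fgb but the highest for Fga. The oncostatin M receptor Osmr (1.58, SE 0.17), the cytokine Lif (0.95, SE 0.20), the kinase Jak2 (0.50, SE 0.11) and Stat3 (0.64, SE 0.16) were also higher, and the feedback inhibitor Socs3 stood at 0.48 (adjusted p = 0.0652 in limma). Of 12 liver transcription factors of the fibrinogen genes, Stat3 was higher, Hnf4a was lower (-0.89, SE 0.14) and 10 did not pass, Cebpb among them at 0.43 (adjusted p = 0.0703 in limma). Of 24 acute phase genes 6 were higher, and 18 missed the threshold (median 0.25). C3 (3.28, SE 0.25), Serpina3n (2.77, SE 0.25), the siderophore-binding Lcn2 (2.17, SE 0.20), the copper carrier Cp (1.69, SE 0.16) and Il1rn (1.80, SE 0.23) were among the 6.

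Calls among genes that make, cross-link or dissolve the clot ran both ways, as they did over all genes (3.08% higher, 4.57% lower). Of 29 coagulation factors and inhibitors, limma called 2 higher and 3 lower, and left 24 uncalled (median -0.03). Tissue factor (F3), which starts coagulation, was higher (1.06, SE 0.15), as was Serpina10, an inhibitor of factor Xa (1.95, SE 0.17). F13b, the carrier subunit of the enzyme that cross-links fibrin (-1.30, SE 0.17), the kininogen Kng2 (-0.83, SE 0.12) and protein C (Proc, -0.45, SE 0.10) were lower. In the fibrinolysis list 3 of 14 genes passed as higher, 1 as lower and 10 in neither direction (median 0.27). Serpinf2, the main plasmin inhibitor, was lower (-0.82, SE 0.13), and the plasminogen-binding pair Anxa2 (0.82, SE 0.16) and S100a10 (0.55, SE 0.14) was higher. Plasminogen (Plg, 0.21) and its activators Plat (0.50) and Plau (-0.23) had adjusted p of 0.587, 0.121 and 0.426 in limma.

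**Figure D4:**
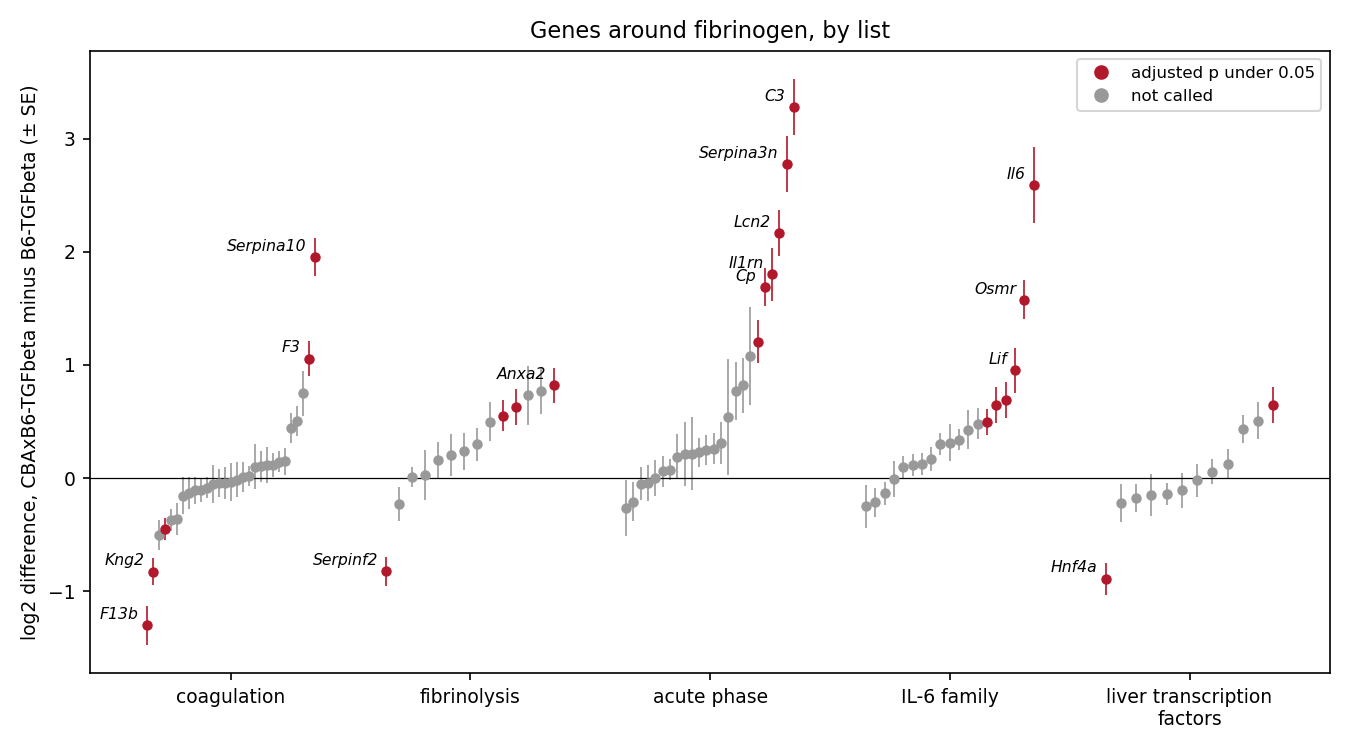
Log2 difference ± SE (y axis, CBAxB6-TGFbeta minus B6-TGFbeta) of each measured gene of 5 lists (x axis, genes ordered by difference within a list), red where limma's adjusted p was under 0.05. Calls run both ways among coagulation (2 higher, 3 lower), fibrinolysis (3 and 1) and transcription factor genes (1 and 1) and only upwards in the acute phase (6) and IL-6 family (6) lists. Over all genes 3.08% were called higher and 4.57% lower.

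Of 14 fibrinogen receptors and ligands, 5 passed as higher, 1 as lower and 8 in neither direction (median 0.32). For this and the following lists, the shares over all genes were 3.08% higher and 4.57% lower. The leukocyte integrin chain Itgam, which binds the gamma chain, had a difference of 1.62 (SE 0.20) and its relative Itgax 0.91 (SE 0.15), with Itgax at -0.072 on its brightest row. Of 18 genes that share the fibrinogen-related domain, 2 passed as higher, 4 as lower and 12 in neither direction (median 0.04), with Tnc at 1.11 (SE 0.12) and Angptl2 at -0.51 (SE 0.10). Of 20 genes of chaperones and secretion in the endoplasmic reticulum, where the chains are assembled, 0 passed in limma and 4 had an unadjusted p under 0.05 (median 0.08). In the tubular injury list 11 of 16 genes passed as higher and 5 missed (median 0.96), with Havcr1 at 2.70 (SE 0.17) and Krt20 at 3.18 (SE 0.20). Its mean level was 9.04 to 9.64 in CBAxB6-TGFbeta and 8.10 to 8.20 in B6-TGFbeta arrays, and its part in the chain differences was not tested. The number of genes called fell when any 1 array was left out, and the counts of most lists changed with the arrays kept. The 1562 genes called over all arrays became 59, 77 and 57 without B6-TGFbeta replicate 1, 2 and 3, 269, 117 and 554 without CBAxB6-TGFbeta replicate 4, 5 and 6, and 1005 without both replicates 2 and 6. The tubular injury count of 11 became 3 with any 1 of the B6-TGFbeta arrays left out and 6, 4 and 9 without CBAxB6-TGFbeta replicate 4, 5 and 6. The receptor count of 6 became 0 with any 1 of the B6-TGFbeta arrays or CBAxB6-TGFbeta replicate 5 left out and 1 without CBAxB6-TGFbeta replicate 4 or 6, and the fibrinogen-related domain count of 6 became 0 and 2 on the same omissions. The coagulation count of 5 became 0 when B6-TGFbeta replicate 1, B6-TGFbeta replicate 3 or CBAxB6-TGFbeta replicate 5 was left out and 2 otherwise, and the fibrinolysis count of 4 became 1 without B6-TGFbeta replicate 2 or CBAxB6-TGFbeta replicate 6 and 0 otherwise. The acute phase count of 6 became 1, 1 and 0 without B6-TGFbeta replicate 1, 2 and 3 and 5, 2 and 6 without CBAxB6-TGFbeta replicate 4, 5 and 6. The IL-6 family count of 6 became 0 with any 1 of the B6-TGFbeta arrays left out and 1, 0 and 4 without CBAxB6-TGFbeta replicate 4, 5 and 6. The hepatocyte and platelet counts of 3 and 1 became 0 with any 1 of the 6 arrays left out.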

How the data were processed

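Values were used as deposited, as log2 intensities with 1 row per exon probe set of an Affymetrix mouse array, and per the submitters' processing notes RMA and Partek were used, with no version or setting. How arrays were scaled to each other, the genome build and detection calls are not given in the labels used here. Rows with exactly 1 symbol (212097 of 241576) were combined into 20416 genes by median polish, 17621 of them under current RefSeq symbols. Differences, CBAxB6-TGFbeta minus B6-TGFbeta, came from limma 3.58.1 in R 4.3.3 (1 group term, moderated variances, two-sided, Benjamini-Hochberg over all genes, threshold 0.05). The calculation was tested on simulated data. Errors of differences are moderated standard errors. Depth has no meaning for arrays, and their number limits the precision. The members and the 14 gene lists (231 of 245 entries measured) were chosen with earlier results of these data known. Genes were to be named by smallest p, at most 5 called genes or 2 others per list. The chains, Alb, the chains' neighbours and nearest profiles, and genes of the background text (Il6, Stat3, Socs3, Cebpb, F3, Plat, Plau, Plg) were named beside them. This rule was not followed in every list. Called genes not named in the results include Vcam1, with the smallest p of the tubular injury list, Bcl3, Serpine2, Itgb2, Itgb3, Icam1 and all called kidney markers. Ucp1 was chosen after its values were seen. Promoters came from RefSeq windows (3 of 3 matched). Rows with several symbols or none were not used.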

Additional observations from a re-analysis of the deposited data

How the results depend on the processing

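A second quantile normalization and median centring left the chain differences at 2.59 and 2.60 for Fga, 3.15 and 3.17 for Fgb and 4.06 and 4.07 for Fgg. On the brightest row Fga stood at 2.81 and Fgb at 2.21, and without the dimmer 50% of rows Fga stood at 2.73 and Fgg at 4.43. With each array left out in turn Fga ran from 2.62 to 2.82, Fgb from 2.90 to 3.39 and Fgg from 3.95 to 4.14. The median polish was redone each time, and the Fga difference with all arrays, 2.57, lay below that whole range. With the mean of rows in place of the polish Fga stood at 2.48 (SE 0.14). All 200 values of the 25 single rows under 8 alternatives stayed positive, from 1.48 to 5.09. Alb ran from -1.10 to 1.55 with single arrays left out and stood at -0.40 on its brightest row and at -0.10 without replicates 2 and 6.

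With single arrays left out, 57 to 554 genes were called, and 0 hepatocyte, 0 to 2 coagulation, 0 to 1 fibrinolysis, 0 to 6 acute phase, 0 to 4 IL-6 family and 0 to 1 transcription factor genes. Without moderation 63 genes were called and 0 in each of these 6 lists. On the brightest row 617 genes were called (335 higher, 282 lower), with 1 hepatocyte, 3 coagulation, 1 fibrinolysis and 0 transcription factor genes. Coagulation counted 8 with the mean of rows and 9 without the dimmest 25% of genes, with trended and robust moderation and with array weights, where fibrinolysis counted 7. Without replicates 2 and 6, 1005 genes were called. The cause of these shifts was not tested.

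Differences of single genes also turned sign. Plg ran from -0.045 to 0.36 with single arrays left out, negative without replicate 6, and stood at -0.044 without both high arrays. Lrat ran from -0.15 to 0.0020, positive without replicate 5. Gm10710 stood at 0.023 after median centring and ran from -0.073 to 0.067, positive without replicate 3, 4 or 5. Ucp1 ran from -2.16 to 0.77, positive without replicate 2, and stood at 0.70 without both high arrays. On the brightest row Itgax, called with all rows, stood at -0.072 and Abp1, also called, at -0.55. No paired analysis was possible because the groups share no replicate numbers. Signal over background could not be set for the dim rows, since detection values were not used here.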
